A study of Mus musculus with 4 samples.

Results

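Early proximal tubule cells of the mouse kidney were described in 4 single-cell libraries, with the sodium and lactate cotransporter gene Slc5a12 as the gene that selected them. A barcode was taken as an early proximal tubule cell when it held at least 1000 UMIs (unique molecular identifiers, which count captured RNA molecules), 200 to 5000 detected genes and under 50% mitochondrial UMIs. It also needed at least 5 UMIs, and at least 10 per 10000, summed over Slc34a1, Lrp2 and Miox, at least 2 UMIs of Slc5a12 and more of Slc5a12 than of Slc7a13, and fewer than 3 UMIs of Slc12a1. This rule found 2064 cells among 58660 barcodes, of which 30818 were within the limits on UMIs, genes and mitochondrial UMIs and 8234 of those met the proximal tubule part of the rule. The members were thus selected on the measured UMIs of Slc34a1, Lrp2, Miox, Slc5a12, Slc7a13 and Slc12a1, whose levels are given as a description. Slc5a2, which encodes the glucose cotransporter SGLT2, was not used to select.

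The first stretch of the proximal tubule takes back most of the filtered glucose, amino acids, phosphate, bicarbonate and small proteins. SGLT2 in its brush border carries glucose in with sodium, GLUT2 (Slc2a2) lets it out towards the blood, and the sodium pump keeps up the gradient that drives the uptake. The same cells burn fatty acids for energy and make glucose from lactate and glutamine, and further along the tubule SGLT2 gives way to SGLT1 (Slc5a1) and the amino acid exchanger gene Slc7a13 marks the last segment.

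The mice were male C3H animals, 18 weeks old, and whole kidneys were dissociated. WT-ND and WT-HFD were wild-type mice on a normal diet or on a high-fat diet with 60% of calories from fat, given for 8 weeks from 10 weeks of age. SP-ND and SP-HFD were Sweet Pee (SP) mice, labelled MT, on the same diets; they are homozygous for a missense mutation of Slc5a2 in every cell of the body, so no cell type or time limits the loss of function. Each condition was 1 library, and the number of animals behind a library was not given in the labels, so no difference between conditions has a replicate check and no test or p-value is given. Intervals are 95% exact intervals and cover counting error only.

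WT-ND held 1034 of the cells and WT-HFD 451, while SP-ND held 334 and SP-HFD 245. They were 11.7% (11 to 12.4%), 4.93% (4.5 to 5.4%), 5.53% (4.96 to 6.13%) and 3.62% (3.18 to 4.09%) of the barcodes within the limits. WT-ND thus held the highest share and SP-HFD the lowest. With each barcode thinned to 1000 UMIs before a rule scaled to that depth, the shares were 6.60%, 3.51%, 2.88% and 1.59%, so WT-ND remained highest and SP-HFD lowest. Of the barcodes that met the proximal tubule part of the rule, 32.6%, 15.3%, 26.0% and 29.9% were early cells.

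Depth differed between the libraries. The libraries held 93142028, 115117649, 111617794 and 90728590 UMIs; here and in every other list of 4 values the WT pair comes first and the SP pair second, each with the normal diet before the high-fat diet. Early cells had a median of 8366, 14596, 13796 and 14300 UMIs, so that WT-ND cells were the shallowest, and mitochondrial UMIs made up 33.1%, 32.9%, 35.7% and 34.8% of them. Levels are UMIs summed over the cells of a library per 1000000 UMIs of all genes outside the mitochondrial genome (CPM), over 6453625, 4934332, 2945469 and 2269155 such UMIs. Where a summed level was lower, fewer cells with the RNA and less RNA per cell cannot be told apart from the sum alone, and shares of cells are therefore given after each barcode was thinned to 1000 UMIs. Of all barcodes, 379 were shared by any pair of the 4 libraries, and 1 barcode of the early cells occurred in a pair.

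The marker genes named for these cells were present in all 4 libraries. Slc34a1, the main brush border phosphate cotransporter, was at 4242, 5229.7, 3793 and 4676 CPM, which as a gene of the rule is a description. Slc7a7, the light chain of the basolateral exchanger of basic amino acids, was not used by the rule and was at 279.7, 142, 287 and 157 CPM against 83.5, 19.6, 116 and 21.1 CPM in late proximal tubule cells. Slc7a8, another basolateral amino acid exchanger, was at 85.1, 52.7, 137 and 55.5 CPM against 16.9, 11.2, 32.6 and 6.41 CPM. Late cells here are barcodes of the same proximal tubule rule with at least 2 UMIs of Slc7a13 and more of Slc7a13 than of Slc5a12, and numbered 1123, 539, 443 and 229. Both exchangers were thus higher in early than in late cells in each library, although both groups were cut from counts of the same barcodes and the difference is a description. Late proximal tubule markers summed to 707, 1011, 349 and 1044 CPM, with Slc22a7 at 0 in SP-ND and Cyp7b1 at 0 in SP-HFD.

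Slc5a12 itself had a median of 4, 4, 5 and 4 UMIs per early cell and a highest count of 20, 21, 25 and 14. At the edge of the rule, 221, 118, 67 and 64 cells had exactly 2 UMIs of it, and 231, 307, 77 and 74 barcodes fell just outside with 1 UMI and none of Slc7a13. SGLT2 RNA stood at 783, 512, 160 and 249 CPM in cells with 2 or 3 Slc5a12 UMIs and at 631, 395, 151 and 198 CPM in the barcodes just outside. Slc34a1, which the rule used on both sides of this edge, was at 3863, 4881, 3321 and 4518 CPM inside and 3118, 3617, 2869 and 4043 CPM outside. A further 491, 359, 481 and 376 barcodes met every condition except the mitochondrial limit.

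RNA of other cells was present in these barcodes, and its part in the results was not tested. The summed CPM of 7 thick ascending limb markers was 553, 489, 652 and 523, led by Cldn10 or Umod, and lay below the 1419, 1057, 939.9 and 1403 CPM of leukocyte barcodes, which should hold none. Slc12a1 is among the 7, and the rule limits it in early cells but not in leukocytes, so the lower sum was partly set by the rule. The 5 leukocyte markers summed to 30.2, 10.1, 20.4 and 18.1 CPM, with Cd52 the most abundant and none at 0. The 5 endothelial markers summed to 67.6, 42.4, 39.7 and 95.6 CPM, led by Emcn, also with none at 0. Principal cell markers summed to 355, 177, 118 and 86.8 CPM and distal convoluted tubule markers to 264, 80.7, 325 and 79.8 CPM, and these 2 lists differed between libraries by the largest steps among the tubule lists. The 4 neutrophil markers summed to 102, 11.8, 1.02 and 2.64 CPM, highest in WT-ND, and S100a9, Retnlg and Csf3r were at 0 in SP-ND. The highest sums of immune markers were those of B cells, 2076 CPM in SP-HFD, and of macrophages, 367 CPM in SP-ND, whose genes were Igkc and Cd74 above all. No doublet caller was run. An alternative left out early cells with 5 or more UMIs of 6 other cell types' marker lists. It is quoted for some of the results that it changed, not for all.

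Against late cells, 47 genes were higher and 36 lower past 2-fold in early cells of all 4 libraries, of 6122 compared. These counts include Slc5a12 and Slc7a13, whose UMIs defined early and late cells, so that their difference was set by the rule. The genes named here were chosen after their values were seen. Among the higher genes was Rnase4, a secreted ribonuclease, at 47.7 against 3.25, 28.2 against 1.0, 36 against 0.213 and 42.7 against 2.29 CPM, early against late in each library. Slc6a19, the brush border carrier of neutral amino acids, was at 429 against 103, 415 against 121, 532 against 116 and 337 against 97.1 CPM. Gatm, which makes the creatine precursor guanidinoacetate, was at 1750.0 against 524, 1715 against 417, 2671 against 1311 and 2014 against 502 CPM. The transporters that replace these along the tubule went the other way. Slc6a18, a relative of Slc6a19, was at 73.8 against 222, 49 against 201, 60.1 against 271 and 37.9 against 296 CPM, and Slc5a1, which encodes SGLT1, was at 18 against 63.4, 7.7 against 37.6, 27.8 against 82.8 and 9.25 against 40.8 CPM.

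Slc5a2 (chr7:128265657-128272430, plus strand, mm10) was the glucose transporter gene that differed most between the genotypes. In WT cells its level was 861 CPM (839 to 884) on the normal and 619.5 CPM (598 to 642) on the high-fat diet. In SP cells it was 207 CPM (191 to 224) and 256 CPM (236 to 278). Both SP libraries were below both WT libraries, with no overlap of the intervals. SP cells against WT cells gave a log2 ratio of -2.06 (95% interval -2.18 to -1.94) on the normal diet, a 4.17-fold lower level, and -1.27 (95% interval -1.41 to -1.15) on the high-fat diet, a 2.42-fold lower level. The mutation changes the protein's sequence and not its gene's presence, so this level does not check the labels.

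On diet, Slc5a2 went in opposite directions in the genotypes: the log2 ratio of high-fat to normal diet was -0.48 (95% interval -0.54 to -0.41) in WT and 0.31 (95% interval 0.14 to 0.47) in SP, both short of 2-fold, and the difference between them was not tested. In cells under 30% mitochondrial UMIs the SP ratio was -0.16. After thinning, 41.8% (38.8 to 44.9%), 32.6% (28.3 to 37.1%), 14.4% (10.8 to 18.6%) and 20.8% (15.9 to 26.4%) of early cells had a Slc5a2 UMI, against 3.04%, 1.77%, 0.20% and 0.894% of leukocytes and 3.45%, 2.64%, 0.391% and 0.191% of endothelial cells, which serve as the background from free RNA. The share in SP cells was therefore lower than in WT cells and above background in each library. Late cells held less of it, 165, 123, 23.5 and 44.4 CPM, with the same order of the libraries. The ratio on the high-fat diet was -0.76 as a mean over cells and -0.72 after thinning, which ends its place past 2-fold.

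**Figure D1:**
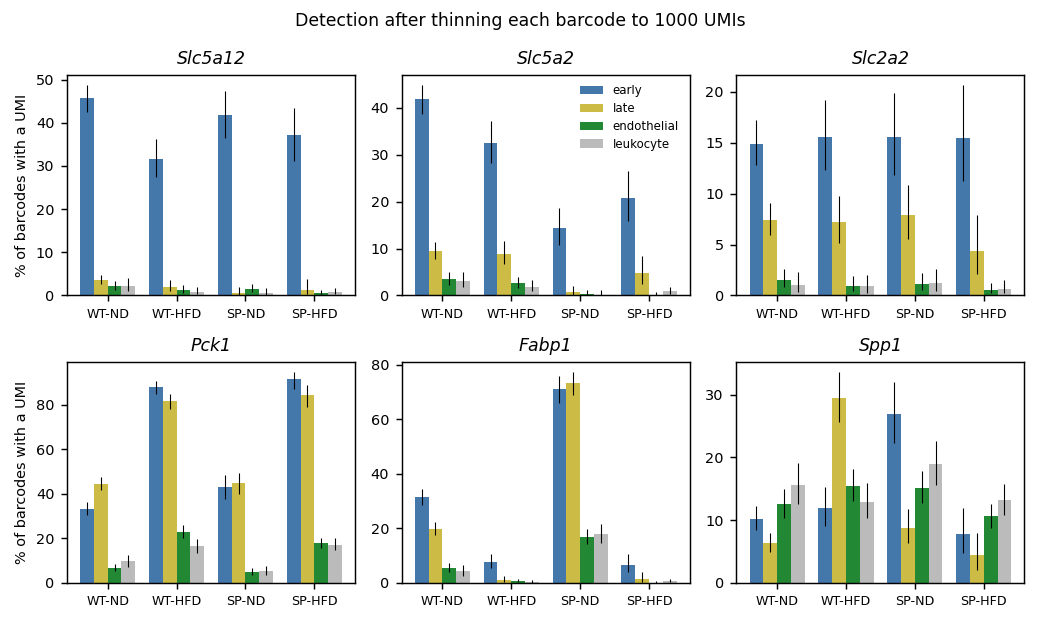
Share of barcodes with at least 1 UMI of each gene after every barcode was thinned to 1000 UMIs, in percent, by library; bars are early and late proximal tubule cells, endothelial cells and leukocytes, and lines are 95% Clopper-Pearson intervals. Slc5a2 was found in 41.8% of WT-ND and 14.4% of SP-ND early cells, and Fabp1 in 71.3% of SP-ND early cells.

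Among the other tested glucose carriers only Slc5a10 differed past 2-fold. Of 4 tested glucose transport genes, 1 was higher and none lower past 2-fold on diet in each genotype, where 1.17% of all 5991 tested genes were higher in WT and 2.45% in SP. Slc2a2, the basolateral exit for glucose, was at 246, 245, 222 and 236 CPM, and its diet log2 ratios of -0.01 (95% interval -0.12 to 0.10) in WT and 0.09 (95% interval -0.08 to 0.25) in SP both had intervals that included 0. Slc2a5, the fructose carrier GLUT5, was at 80.1, 130.3, 76.4 and 105 CPM. Slc5a10, the sodium-dependent mannose and fructose cotransporter SGLT5, was at 49.4, 174, 23.8 and 232 CPM, higher on the high-fat diet by log2 ratios of 1.81 (95% interval 1.63 to 2.00) in WT and 3.29 (95% interval 2.92 to 3.67) in SP. On the normal diet it was also lower in SP than in WT, by a log2 ratio of -1.06 (95% interval -1.45 to -0.68) that was -0.77 as a mean over cells and -0.62 after thinning. Slc5a2 and Slc5a10 were thus the 2 of 4 genes lower past 2-fold there, against 0.718% of all genes. In late cells Slc5a10 was at 179, 229.7, 128 and 249 CPM, so early and late cells were closer to each other on the high-fat diet than on the normal diet. Slc5a1 was at 18, 7.7, 27.8 and 9.25 CPM, under the mean of 20 CPM that a gene needed to be counted.

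**Figure D2:**
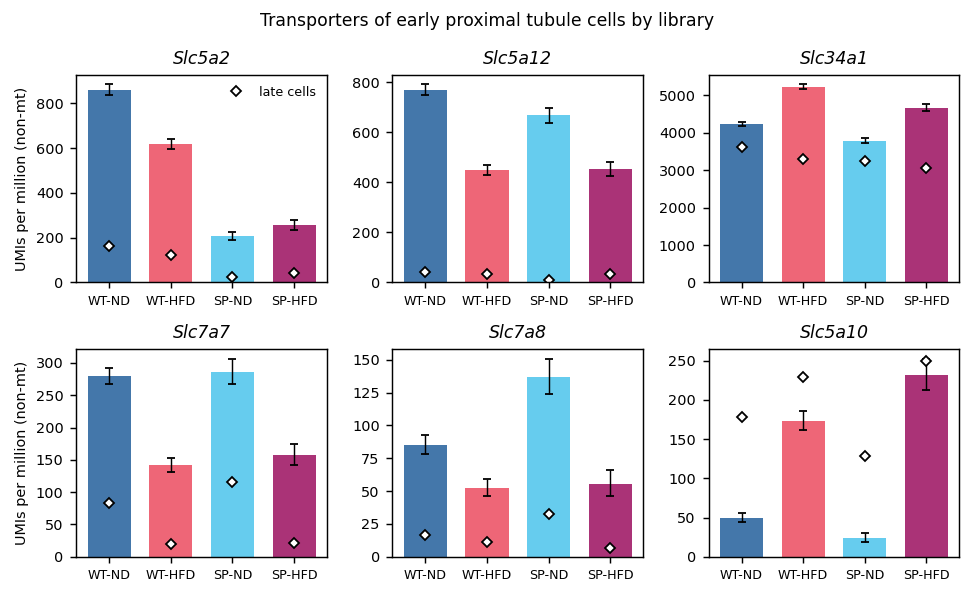
Level of 6 transporter genes in early proximal tubule cells of each library, in CPM; bars are the sum over cells, lines 95% Poisson intervals, and diamonds late proximal tubule cells of the same library. Slc5a2 was lower in both SP libraries, Slc7a7 and Slc7a8 were lower on the high-fat diet in both genotypes, and Slc5a10 was higher there, while Slc5a12 selected the cells and is shown as a description.

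Across all genes with a mean of at least 20 CPM over the libraries (5991 genes), 70 (1.17%) were higher and 93 (1.55%) lower past 2-fold in WT-HFD than in WT-ND, and 147 (2.45%) were higher and 165 (2.75%) lower in SP-HFD than in SP-ND, 2.72% and 5.21% of all genes in either direction. The 2 diet comparisons share no library. Of the higher genes 59 were common to both, 84.3% of the WT list and 40.1% of the SP list, and of the lower genes 61, 65.6% and 37.0%. Only 3 genes (0.0501%) were past 2-fold in opposite directions. A diet and a genotype comparison can share a library. SP-ND is in SP-HFD against SP-ND and in SP-ND against WT-ND, so a level particular to SP-ND moves both. The floor of 20 CPM is a mean that includes every library, so a gene high in 1 library alone can pass it. Scaling by median-of-ratios size factors moved the higher genes' share of all past 2-fold from 47.1% to 58.4% in SP, and taking means over cells moved it from 42.9% to 54.4% in WT.

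**Figure D3:**
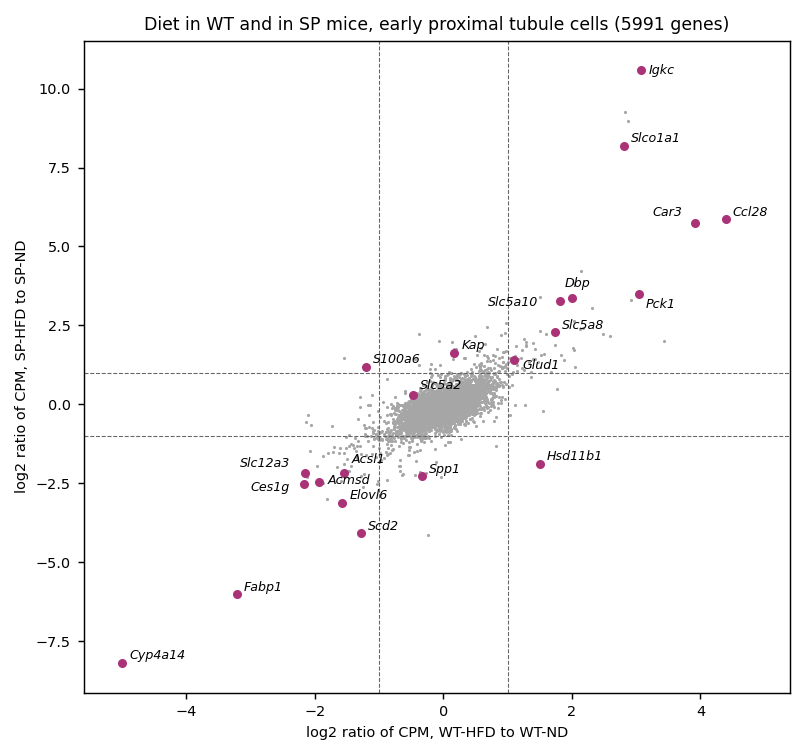
Log2 ratio of CPM on the high-fat against the normal diet in WT (horizontal) and SP (vertical) early proximal tubule cells; each point is 1 of 5991 genes, dashed lines mark 2-fold, and coloured points are named. Pck1, Car3 and Ccl28 lie high in both genotypes and Cyp4a14 and Fabp1 low in both, whereas 94.2% of the Igkc UMIs of SP-HFD lay in 1 barcode.

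Most transporters for solutes other than glucose stayed within 2-fold. Among 6 tested monocarboxylate transport genes other than the rule gene Slc5a12, Slc5a8 was past 2-fold higher on the high-fat diet in both genotypes. No gene was past 2-fold lower in both, where 0.985% of all genes were higher and 1.02% lower in both. Slc16a1, a monocarboxylate carrier, had log2 ratios of -1.10 and -0.57, of which the WT value was -0.84 in cells under 30% mitochondrial UMIs. Slc5a8, which takes up lactate and short-chain acids with sodium, was at 25.7, 85.7, 20.7 and 100.5 CPM, with log2 ratios of 1.74 (95% interval 1.47 to 2.00) and 2.28 (95% interval 1.87 to 2.71). Slc5a12 (chr2:110597298-110647779, plus strand, mm10), its low-affinity relative and a gene of the rule, was at 769, 448, 668 and 453 CPM. Its levels are a description, since its UMIs selected the cells.

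Slc34a1, a gene of the rule, is left out of the counts for sodium, phosphate and bicarbonate transport. Among the 16 other tested genes Slc13a2 was higher and Slc34a3 lower past 2-fold on the high-fat diet in both genotypes, against 0.985% and 1.02% of all genes. Slc13a2, the citrate and dicarboxylate carrier, was at 37.5, 98.7, 32.9 and 89.5 CPM, with log2 ratios of 1.40 and 1.44 of which the SP value was 0.98 as a mean over cells. Slc34a3, the minor brush border phosphate carrier, was at 45.4, 20.1, 55.7 and 25.1 CPM, with log2 ratios of -1.18 and -1.15. The WT ratio was -0.84 as a mean over cells and -0.93 in cells under 30% mitochondrial UMIs. The SP ratio was -0.08 as a mean over cells, -0.05 after thinning and -0.94 with cells that held markers of other types left out. Atp1b1, the beta subunit of the sodium pump, did not reach 2-fold, at 1593, 1991, 1710.1 and 2188 CPM and higher on the high-fat diet in each genotype.

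None of the 15 tested amino acid transport genes passed 2-fold on diet in WT and 1 did in SP, where 2.72% and 5.21% of all genes did. It was Slc7a8, with a diet log2 ratio of -1.30 (95% interval -1.60 to -1.01). Cltrn, the chaperone that brings neutral amino acid carriers to the brush border, was at 4501, 2513, 5259.6 and 2747 CPM, lower on the high-fat diet by log2 ratios of -0.84 and -0.94. Slc6a19 was at 429, 415, 532 and 337 CPM and Slc3a1, the heavy chain of the cystine carrier, at 328, 299, 252 and 282 CPM. The list's median diet log2 ratio was -0.14 in WT and -0.37 in SP, beside -0.02 and -0.07 for all genes. Of 13 organic ion transport genes 1 was past 2-fold higher on diet in WT and 2 in SP, against 1.17% and 2.45% of all genes. Slco1a1 was so in both genotypes and Slc22a30 in SP, and Slc22a6, the organic anion uptake carrier OAT1, was at 911, 1223, 684 and 1341 CPM. With the rule gene Lrp2 left out, none of 9 endocytic uptake genes passed 2-fold in any of the 4 comparisons, where 2.72%, 5.21%, 1.3% and 0.551% of all genes did. Lrp2 (megalin) was at 2215, 1443, 2106 and 1394 CPM, which is a description. Dab2, its adaptor, was at 548, 560.2, 585 and 613 CPM.

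The gluconeogenesis and fructose use list stood higher on the high-fat diet. Of 11 tested genes 3 were past 2-fold higher and none lower in WT, and the same number in SP, against 1.17% and 2.45% of all genes higher, with Pck1 and Glud1 past 2-fold in both. All 11 had a ratio above 0 in WT and 9 in SP, and the median log2 ratio was 0.61 and 0.50. Pck1 and Glud1 lie on the route by which proximal tubule cells make glucose and ammonia from amino acids.

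Pck1 (chr2:173153048-173159273, plus strand, mm10), the cytosolic enzyme that commits oxaloacetate to glucose synthesis, was at 695, 5705, 709 and 8002 CPM. Its level was 8.21-fold higher in WT-HFD than in WT-ND (log2 3.04 (95% interval 2.99 to 3.08)) and 11.3-fold higher in SP-HFD than in SP-ND (log2 3.50 (95% interval 3.43 to 3.56)). After thinning, 33.4%, 88%, 43.1% and 91.4% of early cells had a Pck1 UMI, against 9.72%, 16.4%, 5.39% and 17.1% of leukocytes. Most early cells of the high-fat libraries thus held Pck1 RNA, at shares far above those of leukocytes. Late cells held 899, 3190.1, 1044 and 5014 CPM, so late cells were above early cells on the normal diet and below them on the high-fat diet in both genotypes.

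Glud1, which turns glutamate into ketoglutarate and ammonia, was at 283, 602, 308 and 816 CPM, with log2 ratios of 1.09 and 1.41 in WT and SP. The WT ratio of Glud1 was 0.98 as a mean over cells and 0.92 in cells under 30% mitochondrial UMIs, and the SP ratio was 0.95 after thinning, so each of these settings ended a call. Fbp1, the next committed enzyme, was at 828, 1302, 775 and 1096 CPM, and G6pc, the last step to free glucose, at 412, 512, 302 and 284 CPM. G6pc had diet log2 ratios of 0.31 and -0.09 and the lowest levels in the 2 SP libraries. None of 10 glycolysis genes passed 2-fold in any comparison, where at most 5.21% of all genes did.

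PPAR-alpha target genes stood lower on the high-fat diet and, on the normal diet, higher in SP. PPAR-alpha is the nuclear receptor that fatty acids activate and that switches on genes of fatty acid binding and oxidation. Of 16 tested genes none was higher and 6 were lower past 2-fold in WT, and 1 was higher and 7 lower in SP, where 1.55% of all genes were lower in WT and 2.75% in SP. The medians were -0.51 and -0.83 on diet, and 0.46 for SP-ND against WT-ND, where 4 were higher and 1 lower, against 0.584% and 0.718% of all genes. Between the high-fat libraries the median was 0.25 and 1 gene was higher, against 0.351% of all genes, which was Cyp4a14 with 2 UMIs in each library.

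Fabp1 (chr6:71199827-71205023, plus strand, mm10), the fatty acid binding protein of liver type, gave the most UMIs of the list, at 950.3, 102, 5867 and 91.2 CPM. SP-ND was far above the other libraries, and the high-fat libraries were close to each other. On diet it was 9.3-fold lower in WT (log2 -3.22 (95% interval -3.35 to -3.09)) and 64.3-fold lower in SP (log2 -6.01 (95% interval -6.21 to -5.81)). SP exceeded WT 6.17-fold on the normal diet (log2 2.63 (95% interval 2.58 to 2.67)), whereas on the high-fat diet the log2 ratio was -0.16 (95% interval -0.40 to 0.07), an interval that included 0. After thinning, 31.5%, 7.54%, 71.3% and 6.53% of early cells had a Fabp1 UMI, against 4.25%, 0.177%, 17.8% and 0.511% of leukocytes and 5.36%, 0.60%, 16.8% and 0.0954% of endothelial cells. Fabp1 RNA was thus also in the free RNA of SP-ND, at a share well under that of the early cells. Late cells had the same order, at 479.6, 11.4, 4874 and 9.62 CPM.

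The start of Fabp1 is shown because PPAR-alpha is known to bind a direct repeat of this kind at its targets. The window runs from 250 bases before to 50 bases after the RefSeq start (chr6:71199629-71199928, plus strand, GRCm38.p6), printed 5′ to 3′, and its capitals mark a match to the direct repeat AGGNCANAGGNCA, which lies on the minus strand.
Fabp1 promoter: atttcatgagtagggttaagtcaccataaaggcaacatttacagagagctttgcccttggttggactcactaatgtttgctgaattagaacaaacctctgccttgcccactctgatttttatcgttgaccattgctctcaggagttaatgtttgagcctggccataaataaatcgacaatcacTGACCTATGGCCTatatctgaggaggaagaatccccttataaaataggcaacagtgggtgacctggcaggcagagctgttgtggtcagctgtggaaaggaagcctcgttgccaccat
The match starts 67 bases before the RefSeq start, which lies downstream of the first base of the gene as given above. Searched on both strands, the same letters occurred in 125 of 32851 such windows of all genes (0.381%) and in 1 of the 11 genes of the PPAR-alpha list that had such a window (12 windows in all). A match of letters is a description and does not show binding in these cells.

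Other members of the list were also highest in SP-ND. Cyp4a14, an omega-hydroxylase of fatty acids, had 84, 2, 753 and 2 UMIs, that is 13, 0.405, 256 and 0.881 CPM. Its log2 ratio of high-fat to normal diet was -5.01 (95% interval -8.07 to -3.11) in WT and -8.18 (95% interval -11.23 to -6.32) in SP, with only 2 UMIs in each high-fat library, and that of SP-ND to WT-ND was 4.30 (95% interval 3.97 to 4.64). Cyp4a10, its close relative with which reads can be confused, was at 109.6, 53.7, 392 and 69.2 CPM, with diet log2 ratios of -1.03 and -2.50; the WT ratio was -0.51 in cells under 30% mitochondrial UMIs. Acsl1, which activates long-chain fatty acids, was at 189, 64.6, 372 and 82 CPM, and Acot1, an acyl-CoA thioesterase, at 72.5, 20.7, 142 and 17.6 CPM. Both were past 2-fold lower on the high-fat diet in each genotype.

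Not every member followed. Ehhadh, an enzyme of peroxisomal oxidation, was at 246, 152, 352 and 199 CPM, short of 2-fold on diet in both genotypes. Cd36, the fatty acid uptake protein, went the other way at 186, 332, 77.1 and 261 CPM, with log2 ratios of 0.84 and 1.76 on diet and -1.27 for SP-ND against WT-ND. In the list of 18 fatty acid oxidation enzymes only Acaa2, the mitochondrial thiolase, passed 2-fold on diet, lower in each genotype at 112, 44.4, 211 and 67 CPM, against 1.55% and 2.75% of all genes lower. The median of that list was 0.17 in WT and 0.11 in SP. Acmsd, which steers tryptophan breakdown away from NAD, was among the 8 lowest genes on diet, at 152, 39.5, 226 and 41 CPM with log2 ratios of -1.94 and -2.47.

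**Figure D4:**
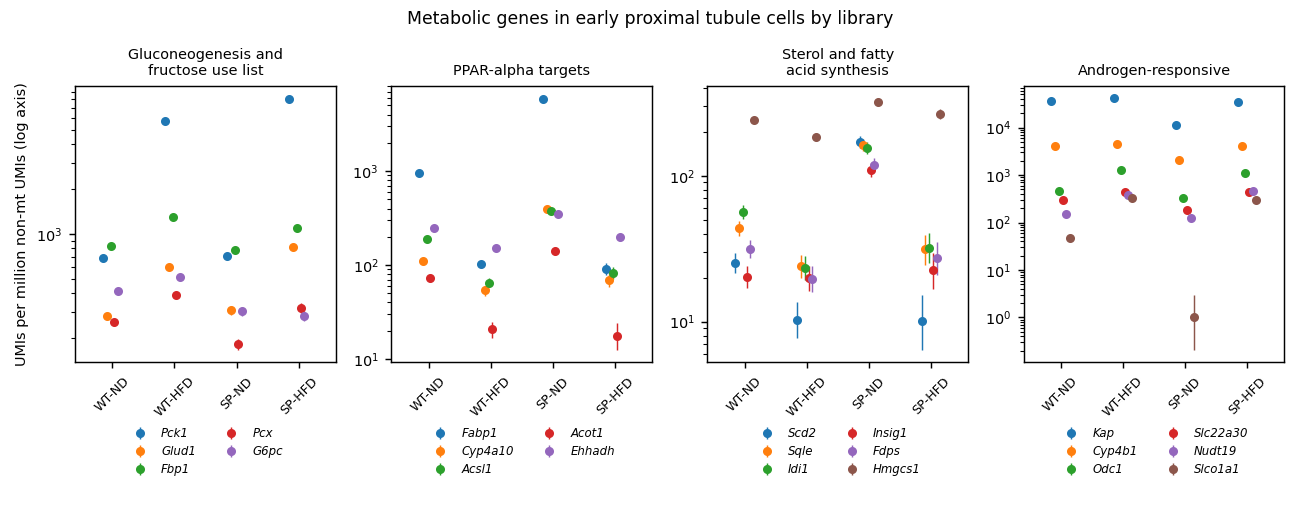
Level of 5 or 6 genes of each of 4 lists in early proximal tubule cells, in CPM on log axes that differ between panels, by library; points are the sum over cells and lines 95% Poisson intervals. Pck1 is higher in both high-fat libraries, Fabp1 and the sterol genes are highest in SP-ND, and Slco1a1 is lowest there at 1.02 CPM.

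Sterol and fatty acid synthesis genes were highest in the SP-ND library. Of 10 tested genes 7 were past 2-fold higher and none lower in SP-ND than in WT-ND, 7 were lower in SP-HFD than in SP-ND, and 3 were lower in WT-HFD than in WT-ND. The shares of all genes were 0.584% higher, 2.75% lower and 1.55% lower in these comparisons. No gene of the list passed 2-fold between the high-fat libraries. The medians were -0.67, -2.21, 1.48 and 0.13 for WT diet, SP diet, SP-ND against WT-ND and SP-HFD against WT-HFD.

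Scd2, a desaturase that makes monounsaturated fatty acids, was at 25.3, 10.3, 171 and 10.1 CPM, with a log2 ratio of -4.07 (95% interval -4.75 to -3.47) on diet in SP and 2.76 (95% interval 2.50 to 3.02) for SP-ND against WT-ND. Sqle, which oxidises squalene on the way to cholesterol, was at 43.9, 23.9, 163 and 31.3 CPM, and Idi1, an isomerase of the same route, at 56.6, 23.3, 156 and 32.2 CPM. Elovl6, an elongase of fatty acids, was at 36.3, 12.2, 76.4 and 8.81 CPM, and its ratio of SP-ND to WT-ND, 1.08, was 0.59 in cells under 30% mitochondrial UMIs. The SP-ND library was the highest for each of these genes. Insig1, the sterol sensor that holds back the route, was at 20.3, 19.9, 109 and 22.5 CPM and Fdps at 31.5, 19.7, 118 and 27.3 CPM, both named after their values were seen; Fdps makes farnesyl diphosphate on the way to sterols, and neither differed past 2-fold on diet in WT. Hmgcs1, the first enzyme of the list's cholesterol route, was at 241, 185, 319 and 266 CPM and stayed within 2-fold in every comparison. On diet in WT, Idi1 had a log2 ratio of -1.28 that was -0.68 after thinning, and Scd2 one of -1.29 that was -0.66 as a mean over cells.

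Androgen-responsive genes of the proximal tubule stood low in SP-ND. Of 9 tested genes Slc7a13 is left out of the counts, since the rule limits it in these cells. Of the other 8 genes 3 were higher past 2-fold on diet in WT and 5 in SP, none was lower, and none was higher and 2 were lower in SP-ND against WT-ND. Of all genes 1.17% were higher on diet in WT and 2.45% in SP, and 0.718% were lower in SP-ND. None of the 8 had a ratio above 0 in SP-ND against WT-ND, and all 8 had on diet in SP. Both comparisons use the SP-ND library, so they are not separate evidence. The medians of the 8 genes were 0.50, 1.44, -0.69 and -0.06, the comparisons in the same order as for the sterol genes. All mice were male, and androgen was not measured.

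Kap, the kidney androgen-regulated protein, was at 36809.9, 41327, 11313 and 35227 CPM, lower in SP-ND than in the 3 other libraries, with a log2 ratio of -1.70 (95% interval -1.72 to -1.69) against WT-ND. Kap RNA was also found in leukocyte barcodes, at 7690.3, 1701, 1174 and 1683 CPM. Slco1a1, an organic anion carrier, had 311, 1661, 3 and 676 UMIs, or 48.2, 337, 1.02 and 298 CPM. Its diet log2 ratio was 2.80 (95% interval 2.63 to 2.98) in WT and 8.19 (95% interval 6.64 to 10.47) in SP, where the comparison rests on 3 UMIs in SP-ND. After thinning, 2.22%, 15.5%, 0.599% and 8.57% of early cells had a Slco1a1 UMI, against 6.68%, 2.65%, 0.599% and 1.79% of leukocytes. The share in early cells of both normal-diet libraries was thus no higher than this background, and the diet ratios compare with a level not above free RNA. Odc1, the first enzyme of polyamine synthesis, was at 469.8, 1258, 328 and 1107 CPM, and Nudt19, a hydrolase of coenzyme A, at 152, 372, 127 and 467 CPM. Both were past 2-fold higher on the high-fat diet in each genotype. Cyp2e1, of the list of 17 detoxification enzymes, was at 1467, 2724, 552 and 2559 CPM, past 2-fold on diet in SP alone. Of that list 1 was higher past 2-fold on diet in WT, and 3 were higher and 2 lower in SP, against 1.17%, 2.45% and 2.75% of all genes.

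Outside these lists the genes highest on the high-fat diet in both genotypes were led by Ccl28 and Car3. Ccl28, a chemokine that draws IgA-producing plasma cells to epithelia, was at 7.44, 156, 1.7 and 98.3 CPM, with diet log2 ratios of 4.39 (95% interval 3.97 to 4.84) and 5.86 (95% interval 4.61 to 7.49). Late cells held more of it, 98.2, 657, 21.6 and 799.7 CPM. After thinning, 0.58%, 7.98%, 0% and 6.12% of early cells had a Ccl28 UMI, against 1.62%, 1.59%, 0.20% and 1.66% of leukocytes. On the normal diet the early cells' share was thus no higher than this background, and the diet ratios of Ccl28 compare with a level not above free RNA. Car3, a carbonic anhydrase, was at 32.2, 488, 11.9 and 637 CPM, with log2 ratios of 3.92 (95% interval 3.72 to 4.13) and 5.74 (95% interval 5.26 to 6.27). Fabp4, the adipocyte and endothelial fatty acid binding protein, was at 5.27, 39.7, 4.41 and 43.6 CPM, but 38.8% and 39.4% of its UMIs in the high-fat libraries lay in 1 barcode each. Its SP ratio was 0.28 in cells under 30% mitochondrial UMIs, and its WT ratio 0.70 when cells with markers of other types were left out.

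Among the 8 lowest genes on diet were Ces1g, a carboxylesterase, at 76.4, 17, 27.8 and 4.85 CPM and Plau, the urokinase gene, at 52.5, 13.4, 50.9 and 13.2 CPM, whose SP diet log2 ratio of -1.95 was -0.34 after thinning. Slc12a3, the thiazide-sensitive cotransporter of the distal convoluted tubule, was also among them at 122, 27.4, 165 and 37 CPM, as was Calb1 at 99.9, 22.9, 96.1 and 19.4 CPM. These distal markers do not define proximal cells, leukocytes held Slc12a3 at 141, 25.7, 71.4 and 102 CPM, and leaving out cells with markers of other types ended the call of Slc12a3 in both genotypes and that of Calb1 in SP, while the WT ratio of Calb1 was -1.70 there. After thinning the ratio of Calb1 was -0.23 in WT and -0.86 in SP, and the WT ratio of Slc12a3 was -0.82.

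Some immediate early genes were lower in early cells of the high-fat libraries. With 1 library per group, diet and differences in how each kidney was prepared cannot be told apart. Of 12 tested genes of the AP-1 and immediate early list 4 were lower past 2-fold in WT and 2 in SP and none higher, against 1.55% and 2.75% of all genes lower. The list's medians were -0.74 and -0.58, beside -0.02 and -0.07 for all genes. Egr1, an immediate early transcription factor and the gene of the list past 2-fold lower in both genotypes, was at 99, 30.2, 96.8 and 33.9 CPM, with log2 ratios of -1.71 and -1.51. Jun, a subunit of AP-1, was at 259, 152, 298 and 178 CPM. In late cells the median of the same list was 0.92 in WT and 0.02 in SP, so early and late cells stood on opposite sides of 0 in WT. Markers of other cell types were also higher on diet in WT late cells. The median was 1.36 for thick ascending limb and 1.04 for distal convoluted tubule markers, and the macrophage marker Cd74 stood at 2.48. Leukocytes held Jun at 1861, 2055, 1987 and 1601 CPM, well above the early cells. Only 2 of 16 NF-kB genes reached the mean of 20 CPM. Nfkbia, an inhibitor of NF-kB that is also its target, was at 43.5, 35.5, 86.2 and 37.5 CPM, past 2-fold lower on diet in SP, and Ikbkb, a kinase of the pathway, at 39.4, 43, 37.3 and 40.5 CPM.

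Tubular injury genes were few in these cells: 8 of 20 reached the mean of 20 CPM, and Havcr1, the injury marker KIM-1, was at 1.55, 2.63, 1.7 and 1.32 CPM. These levels hold for the selected cells only, since the rule asks for Slc5a12 and limits Slc12a1. A further 1015, 1965, 510 and 346 proximal tubule barcodes were neither early nor late, and injury RNA in them is not described here. Spp1 (osteopontin), the gene of the list that differed past 2-fold both on diet in SP and by genotype on the normal diet, was at 211, 167, 964 and 199 CPM. SP-ND was again the highest library, and it is in both of these comparisons. After thinning, 10.2%, 12%, 26.9% and 7.76% of early cells had a Spp1 UMI, against 15.6%, 12.9%, 19% and 13.2% of leukocytes, so only SP-ND cells exceeded that background. In late cells the highest library was another, WT-HFD, at 105, 783, 135 and 163 CPM. The list's median diet log2 ratio in WT was -0.27 in early and 1.32 in late cells. Markers of other cell types were higher in those late cells as well, as given above, and their part in the late values was not tested.

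**Figure D5:**
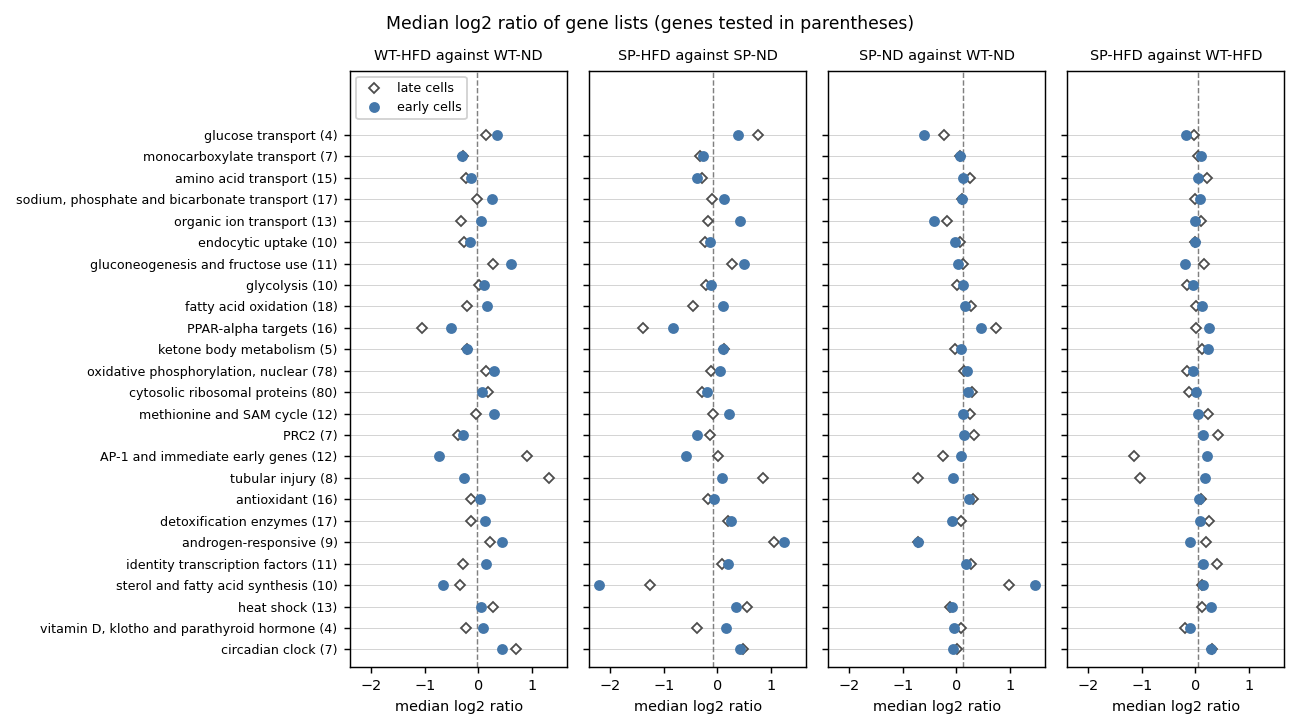
Median log2 ratio of each gene list in the 4 comparisons, with the number of genes tested in parentheses; filled points are early and open diamonds late proximal tubule cells, and dashed lines the median of all genes in early cells. The sterol list has the widest spread in early cells, from -2.21 on diet in SP to 1.48 in SP-ND against WT-ND, and the AP-1 and tubular injury lists stand apart between early and late cells in WT on diet.

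The housekeeping lists of oxidative phosphorylation and ribosomal protein genes held no gene past 2-fold. None of 78 nuclear oxidative phosphorylation genes and none of 80 cytosolic ribosomal protein genes passed 2-fold in any comparison, where 2.72%, 5.21%, 1.3% and 0.551% of all genes did. The oxidative phosphorylation genes had a median of 0.30, 0.06, 0.19 and -0.04 in the 4 comparisons, and 73 of 78 lay above 0 on diet in WT and 50 in SP. Of 12 methionine and SAM cycle genes only Bhmt2, a homocysteine methyltransferase, passed 2-fold, higher on diet in WT against 1.17% of all genes, at 35.6, 74.4, 50.9 and 78.9 CPM. Mat2a, which makes S-adenosylmethionine, was at 221, 299.7, 226 and 265 CPM. None of the 7 tested genes of the PRC2 list passed 2-fold in any comparison, where 2.72%, 5.21%, 1.3% and 0.551% of all genes did. At such shares a list of 7 genes is too short to tell none from the background. Of 11 identity transcription factors none passed 2-fold on diet in WT and 1 was lower in SP, against 2.75% of all genes. It was Pax8, a factor of the kidney tubule, at 60.1, 46.6, 120.2 and 59.9 CPM, close to the 2-fold line. Hnf4a, which keeps the proximal tubule program, was at 348, 306, 396 and 395 CPM.

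By genotype, fewer genes differed in summed levels than by diet; after thinning the order did not hold, with 886 genes past 2-fold in SP-HFD against WT-HFD and 657 in WT-HFD against WT-ND. On the normal diet 35 genes were higher and 43 lower past 2-fold in SP-ND than in WT-ND (1.3% in all), and on the high-fat diet 21 were higher and 12 (0.2%) lower in SP-HFD than in WT-HFD (0.551% in all). The 2 genotype comparisons share no library, and 6 genes were higher in both, 17.1% and 28.6% of the lists, and 6 lower in both, 14% and 50%; 4 (0.0668%) went in opposite directions. The median log2 ratio of all genes was 0.12 on the normal diet and near 0 under median-of-ratios scaling, so ratios of that comparison are read against 0.12. Higher genes were 44.9% of those past 2-fold on the normal diet, but 61.8% as means over cells and 59.3% after thinning. On the high-fat diet they were 63.6%, but 52.4% after thinning and 39.0% in cells under 30% mitochondrial UMIs.

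Besides Slc5a2, the genes lower in both genotype comparisons were Aqp2, Crip1, Ces1g, Eddm3b and Fxyd4. Eddm3b was at 40.8, 35.7, 8.15 and 15 CPM, with SP to WT log2 ratios of -2.32 (95% interval -2.99 to -1.72) and -1.25 (95% interval -1.83 to -0.72), the latter -0.86 as a mean over cells, which ends its place among them. Crip1, a small LIM protein, was at 139, 142, 31.2 and 42.7 CPM, with log2 ratios of -2.15 (95% interval -2.48 to -1.84) and -1.74 (95% interval -2.06 to -1.43), and is abundant in leukocytes at 993, 665, 835 and 499 CPM. Ces1g had log2 ratios of -1.46 and -1.81, which were -0.66 and -0.62 after thinning. Aqp2 and Fxyd4 are principal cell genes, at 114, 50.1, 29.9 and 15 and 78.1, 36.7, 32.3 and 17.2 CPM. When cells with markers of other types were left out, Aqp2 stood at 0.38 and Fxyd4 at 0.18 on the high-fat diet, the opposite direction. On the normal diet they stood at -0.17 and 0.076 there, so neither gene was lower past 2-fold in either comparison.

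The genes higher in both genotype comparisons were Cd74, H2-Ab1, Cyp4a14, Acsl3, Gm42937 and Cryab. Cryab, a small heat shock protein first known from the lens, was at 62.3, 62.8, 251 and 128 CPM, with log2 ratios of 2.01 (95% interval 1.83 to 2.19) and 1.02 (95% interval 0.79 to 1.26); the latter was 0.36 in cells under 30% mitochondrial UMIs and 0.97 with median-of-ratios scaling. Acsl3, an activator of long-chain fatty acids, was at 23.7, 8.11, 65.5 and 17.6 CPM, and its ratio on the high-fat diet was 1.12, which became -0.039 after thinning. Gm42937 was at 17.4, 14.8, 36.7 and 32.2 CPM, and its ratios of 1.08 and 1.12 fell short of 2-fold under several settings, among them 0.96 on the normal diet with median-of-ratios scaling and 0.70 on the high-fat diet after thinning. Cyp4a14 had 2 UMIs in each high-fat library, and no fold is given for that pair. Cd74 and H2-Ab1, of MHC class II, were at 122, 42, 347 and 119 and 30.2, 9.93, 73.7 and 28.2 CPM, against 11264, 15519.7, 16077 and 15672 CPM of Cd74 in leukocytes. The 5 macrophage markers summed to 134, 47.4, 367 and 124 CPM in early cells, Cd74 the most abundant and none at 0. In SP-HFD 57.3% of Cd74 UMIs lay in 1 barcode, and the ratios of both genes on the high-fat diet turned below 0 (-0.070 and -0.42) when cells with markers of other types were left out. On the normal diet they were 0.81 and 0.61 with Slc12a1 at 0 UMIs.

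Immunoglobulin RNA showed how far 1 barcode could set a level. Igkc, the kappa light chain of antibodies, was at 35.2, 296, 1.36 and 2071 CPM in early cells and at 24768, 65998, 4634 and 68054 CPM in leukocytes. In SP-HFD 94.2% of its UMIs lay in 1 barcode that met the rule, and without the top barcode of each library the levels were 27.6, 202, 1.02 and 122 CPM. Jchain and Igha had 89.1% and 89.8% of their SP-HFD UMIs in 1 barcode. B cell markers as a list summed to 38, 299, 2.72 and 2076 CPM, of which Igkc was nearly all in SP-HFD, with Cd79b at 0 there.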

How the data were processed

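Whole kidneys of 4 groups of mice were dissociated, and 1 droplet library per group was sequenced. The authors deposited UMI counts for 32285 genes (38 symbols have more than 1 identifier) and barcodes of at least 500 UMIs; alignment was to mm10 by Cell Ranger, version 6.1.2 in the file headers and 2.1.1 in the submitters' processing notes.

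Counts of the selected barcodes were summed per library and scaled to 1000000 UMIs outside 13 mitochondrial genes (CPM). Genes with a mean of at least 20 CPM were compared; past 2-fold means a log2 ratio of at least 1 in size. With 1 library per group no test was run; 95% intervals (exact Poisson, conditional binomial, Clopper-Pearson) cover counting error only. Leukocytes and endothelial cells were barcodes with at least 5 UMIs, and at least 10 per 10000, of their marker lists. No doublets were removed and no free RNA was subtracted.

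Cells, lists and named genes were chosen with earlier results of these data known. Named are the markers and rule genes; in each list the 4 genes with the highest mean and those past 2-fold the same way in both diet or both genotype comparisons; and the 8 highest and 8 lowest by the less extreme ratio of a pair. G6pc, Slc5a1, Slc22a30, Havcr1, Bhmt2, Pax8 and genes said so in the text were added after their values were seen. Some genes that the rule names are not reported here.

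Alternatives changed the denominator, scaling, pooling, depth, cell limits, Slc12a1 and Slc5a12 thresholds, other cells' markers, free RNA and the floor; leaving out each gene's top barcode was added after seeing the data. The promoter is from RefSeq (GRCm38.p6), gene positions from a GENCODE annotation of mm10. Scripts (Python 3.11.15 with pandas 2.3.3, numpy 2.4.6, scipy 1.17.1; plots in matplotlib 3.10.9) were tested on simulated data.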

Additional observations from a re-analysis of the deposited data

Results flagged for a closer look

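In early proximal tubule cells 3 genes were past 2-fold in opposite directions on diet in WT and SP, and 4 were so by genotype on the normal and the high-fat diet; with 1 library per group none of these differences was tested. S100a6, a calcium-binding protein of injured tubules and many stromal cells, was at 47.1, 20.5, 35.6 and 81.5 CPM, with diet log2 ratios of -1.20 in WT and 1.19 in SP, and 61.9% of its SP-ND and 60.5% of its SP-HFD UMIs lay in 1 barcode each. Its WT and SP diet ratios were -0.92 and 0.46 after thinning and -0.65 and 0.55 in cells under 30% mitochondrial UMIs, and the WT ratio was -0.39 as a mean over cells. Thinning and the mitochondrial limit thus each ended both calls. Hsd11b1, which regenerates active glucocorticoid, was at 11.8, 33.2, 43.5 and 11.9 CPM, with diet log2 ratios of 1.50 and -1.87 and genotype log2 ratios of 1.88 and -1.48. With cells that held markers of other types left out, its ratios were -0.60 on diet in SP and 0.64 for SP-ND against WT-ND. Ccdc152 was at 107, 36.5, 14.3 and 39.2 CPM, with diet log2 ratios of -1.55 and 1.46, the latter 0.99 with Slc12a1 at 0 UMIs.

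The 3 immunoglobulin genes differed by genotype in opposite directions on the diets. Igkc had log2 ratios of SP against WT of -4.69 on the normal and 2.81 on the high-fat diet, Jchain, the joining chain of secreted IgA, of -3.78 and 2.32, and Igha, the IgA heavy chain, of -4.0 and 2.44. Igha was at 21.7, 153, 1.36 and 834 CPM. Most SP-HFD UMIs of these genes lay in a single barcode, as given above. Without the top barcode of each library, Igkc and Jchain were lower in SP-HFD than in WT-HFD (-0.73 and -0.25).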

How the results depend on the processing

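No paired analysis was possible because each condition has 1 library. Counts of genes past 2-fold are given as higher and lower for WT diet, SP diet, SP-ND against WT-ND and SP-HFD against WT-HFD. They were 179 and 247, 349 and 424, 140 and 151, and 125 and 89 with a floor of 5 CPM, 26 and 17, 58 and 33, 8 and 17, and 5 and 3 with a floor of 100 CPM, and 540 and 931, 948 and 1067, 650 and 684, and 843 and 485 with no floor beyond 1 UMI in each library. Thinning each cell to 1000 UMIs gave 292 and 365, 544 and 699, 370 and 254, and 464 and 422, and Slc5a2 log2 ratios of -0.41, 0.64, -1.77 and -0.72. With all UMIs as the denominator 108 genes were lower on diet in SP and 13 higher in SP-HFD against WT-HFD. As means over cells, 55 genes were higher in SP-ND against WT-ND, 36 higher and 27 lower in SP-HFD against WT-HFD, and Slc5a2 stood at 0.57 on diet in SP and at -1.80 and -0.76 by genotype. Among cells under 30% mitochondrial UMIs, 341 genes were lower on diet in SP, 65 higher and 80 lower in SP-ND against WT-ND, and 41 higher and 64 lower in SP-HFD against WT-HFD. There Slc5a2 stood at -0.16 on diet in SP and at -1.75 and -1.5 by genotype. With up to 6000 genes per cell its WT diet ratio was -0.55. At 4 or more Slc5a12 UMIs, 55 genes were higher and 20 lower in SP-HFD against WT-HFD.

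Some directions turned. For SP-HFD against WT-HFD, the log2 ratio of Acsl3 was -0.039 after thinning. Under 30% mitochondrial UMIs it was -1.80 for Igkc, -1.45 for Jchain, -1.34 for Igha, -1.20 for Cd74 and -0.024 for H2-Ab1. Without the top barcodes it was -0.73 for Igkc and -0.25 for Jchain. With cells that held markers of other types left out it was -0.070 for Cd74, -0.42 for H2-Ab1, 0.38 for Aqp2 and 0.18 for Fxyd4, and Fxyd4 stood at 0.076 for SP-ND against WT-ND. On diet in SP, S100a6 was -0.18 at 4 or more Slc5a12 UMIs. The causes were not tested. Of 6639 log2 ratios of named genes recomputed under the alternatives, 5319 stayed within their counting interval, 1306 moved outside it without turning a direction that was past 2-fold, and 14 turned.

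The early cells' share of barcodes (WT-ND, WT-HFD, then the SP pair) was 7.5%, 3.46%, 3.27% and 1.67% under 30% mitochondrial UMIs, 6.88%, 2.79%, 3.67% and 1.86% at 4 or more Slc5a12 UMIs, 9.53%, 3.96%, 3.66% and 2.98% with Slc12a1 at 0, and 6.60%, 3.51%, 2.88% and 1.59% with barcodes thinned before the rule. It was 13.8%, 5.6% and 6.17% in the first 3 libraries with at least 2000 UMIs, 10.5%, 4.02% and 4.90% in these with other cells' markers left out, and 6.31%, 7.02% and 5.69% in the last 3 with no mitochondrial limit. WT-ND had the highest and SP-HFD the lowest share under each of these settings.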

Other observations

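Dbp and Per3, of the circadian clock list, were higher in early cells of both high-fat libraries. Of 7 tested circadian clock genes 2 were higher past 2-fold and none lower on diet in WT, and 3 higher and none lower in SP, against 1.17% and 2.45% of all genes higher. Dbp, a transcription factor whose RNA cycles daily, was at 36.7, 148, 14.6 and 152 CPM, with diet log2 ratios of 2.01 (95% interval 1.79 to 2.22) in WT and 3.38 (95% interval 2.92 to 3.87) in SP. Per3, a period gene, was at 17.2, 37.1, 13.6 and 39.7 CPM, and its WT ratio of 1.11 was 0.46 in cells under 30% mitochondrial UMIs. Tef, a relative of Dbp, was at 126, 196, 81.8 and 241 CPM and passed 2-fold in SP. The hour at which each kidney was taken was not given in the labels, so hour and diet cannot be told apart.

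Heat shock genes were past 2-fold higher on diet in SP for 4 of 13 and in WT for none, where 2.45% of all genes were higher in SP and 1.17% in WT. Hspa8, the constitutive chaperone of the family, was at 1419, 2077, 1240.2 and 2564 CPM, with diet log2 ratios of 0.55 and 1.05, the latter 0.98 in cells under 30% mitochondrial UMIs. Hsp90ab1 was at 1126, 1078, 1162 and 1164 CPM. The list's median was 0.05 in WT and 0.35 in SP. Diet and differences in how each kidney was prepared cannot be told apart here either.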
